A study of Homo sapiens with 16 samples.

Results

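The response to tumour necrosis factor (TNF) was described in HCT116, an established cell line of human colorectal carcinoma, from the pair of RNA sequencing libraries of the control transfection. The label NC is read here as the control beside cells given small interfering RNA (siRNA) against EZH1 or UXT, and the labels do not spell out its letters. NC TNF was the library of NC cells given TNF, and NC PBS that of NC cells given phosphate-buffered saline. These were 2 of the 16 samples of the series and 2 of its 6 RNA libraries. The other RNA libraries were the PBS and TNF libraries of the siEZH1 and siUXT transfections, and the 10 chromatin samples were not analysed here. The dose and duration of TNF are not stated in the labels. With 1 library a side there is no spread between replicates, so no difference here carries a test or an error.

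Expression was given as FPKM, fragment counts divided by transcript length and library size. Symbols with identical values in both NC libraries were merged into 1 locus. Of 16303 loci above 0 in either NC library, 11787 had a mean of at least 1 FPKM over the pair and were analysed, and 10948 of these were protein coding. Differences are NC TNF minus NC PBS of log2(FPKM + 1), a scale that understates changes at low levels, and 2-fold means a difference of at least 1 on it. Just inside the filter lay DEPTOR, at 1.10 FPKM under PBS and 0.912 under TNF, and SATB1, at 1.03 and 0.98. Just outside it lay PGAP1, at 1.05 and 0.944 FPKM, and GLDN, at 0.922 and 1.08. Low values placed the sequencing depth of NC TNF at 0.719 of that of NC PBS.

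TNF binds the receptor TNFR1, whose adaptors and ubiquitin chains recruit the IKK kinase complex. IKK marks the inhibitor IkB for destruction, and the NF-kB dimers it held back enter the nucleus and bind kB motifs near their target genes. Among the best known targets are chemokines, adhesion molecules, inhibitors of apoptosis and the pathway's own inhibitors, which switch the signal off again.

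The cells carried epithelial markers in both libraries. KRT8, a keratin of simple epithelia, was at 903 FPKM under PBS and 1074 under TNF, and EPCAM, an epithelial adhesion molecule, at 120 and 102. Of 12 colon epithelium markers 6 passed the filter, none of them 2-fold apart, while CDX1, VIL1 and CEACAM5 were listed at 0 in both NC libraries. Of 10 leukocyte markers 7, among them PTPRC, CD3E and CD14, were listed at 0 in both, and CD68 alone passed the filter, at 1.40 and 2.52 FPKM. Of 10 fibroblast and endothelial markers 3 were listed at 0 in both, and COL1A1 was at 5.91 and 7.77 FPKM. PDGFRA shared its values with FIP1L1 and could not be read alone. In a bulk library, fewer cells of a type and less RNA per cell cannot be told apart.

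Promoter sequence is shown for the 9 protein-coding loci that were at least 8-fold higher under TNF and held a kB motif, since these are the genes in which the response and the motif coincide. Each line is the stretch around the motif, 5′ to 3′ on the strand of the gene, from RefSeq promoter windows of GRCh38.p14, and the capitals mark the bases that match the motif. The kB motif used here has 10 bases: 3 times G, a purine, any pair of bases, a pair of pyrimidines and a pair of C. It was searched on both strands.
CXCL1 (chr4:73869299-73869339, plus strand): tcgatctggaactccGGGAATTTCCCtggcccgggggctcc
CXCL2 (chr4:74099248-74099288, minus strand): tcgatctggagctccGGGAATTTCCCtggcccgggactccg
CXCL3 (chr4:74038743-74038783, minus strand): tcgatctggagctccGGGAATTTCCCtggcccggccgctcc
CCL20 (chr2:227813748-227813787, plus strand): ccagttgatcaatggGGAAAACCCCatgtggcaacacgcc
NFKBIA (chr14:35404806-35404845, minus strand): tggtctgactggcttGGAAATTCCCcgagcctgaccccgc
TNFAIP3 (chr6:137867177-137867228, plus strand): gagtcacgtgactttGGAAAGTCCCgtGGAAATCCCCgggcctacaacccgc
BIRC3 (chr11:102317270-102317373, plus strand): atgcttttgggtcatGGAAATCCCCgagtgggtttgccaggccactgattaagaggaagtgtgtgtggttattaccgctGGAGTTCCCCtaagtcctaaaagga
IRF1 (chr5:132490799-132490838, minus strand): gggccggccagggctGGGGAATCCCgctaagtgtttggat
SDC4 (chr20:45348497-45348536, minus strand): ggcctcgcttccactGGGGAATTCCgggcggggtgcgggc
All 9 stretches lie upstream of the annotated start of transcription. In the chemokine trio CXCL1, CXCL2 and CXCL3, which sit near each other on chromosome 4, the motif matches on both strands with a shift of 1 base, so that 11 bases are in capitals. CXCL1 and CXCL3 shared 38 of 41 bases over the stretch, and CXCL2 shared 35 of 41 with each of them. TNFAIP3 and BIRC3 each hold a pair of matches. A match is a description of these letters and not evidence of binding.

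Higher levels under TNF far outnumbered lower ones. Over all loci 151 (1.28%) were at least 2-fold higher and 28 (0.238%) at least 2-fold lower. Among protein-coding loci the counts were 122 higher (1.11%) and 8 lower (0.0731%), and 31 (0.283%) were at least 4-fold and 16 at least 8-fold higher. No protein-coding locus was 4-fold lower. The middle of the distribution stayed near 0, with a median difference of -0.02 over protein-coding loci and 95% of them between -0.52 and 0.65. The count of lower loci depended on the pseudocount: with 0.1 in place of 1, 174 protein-coding loci were higher and 57 lower.

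**Figure D1:**
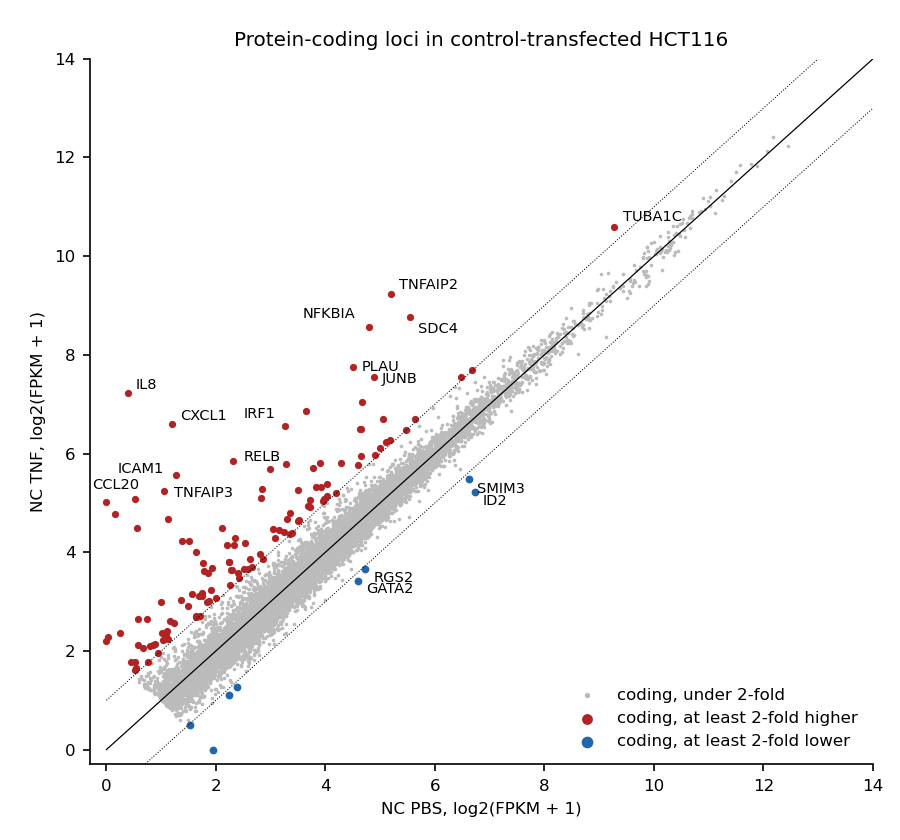
Level of each protein-coding locus in NC PBS (x axis) and NC TNF (y axis), both as log2(FPKM + 1), with 1 point per locus, a solid line of equal levels and dotted lines 2-fold apart. The 122 loci above the upper dotted line reach from genes at or near 0 under PBS, such as CCL20 and IL8, to TUBA1C at 619 FPKM, while 8 lie below the lower one.

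Many of the higher loci were nearly silent before TNF. Under PBS 21 of the 122 (17.2%) were below 1 FPKM, against 92 of all 10948 protein-coding loci (0.840%), and the filter admits such a locus only if its TNF level is high. A further 64 started between 1 and 10 FPKM, 35 between 10 and 100, and 2 above 100. Together the 122 loci held 0.295% of the library's FPKM under PBS and 1.09% under TNF, or 0.195% and 0.847% without TUBA1C. The 10 largest gains made up 59.5% of the summed gain.

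**Figure D2:**
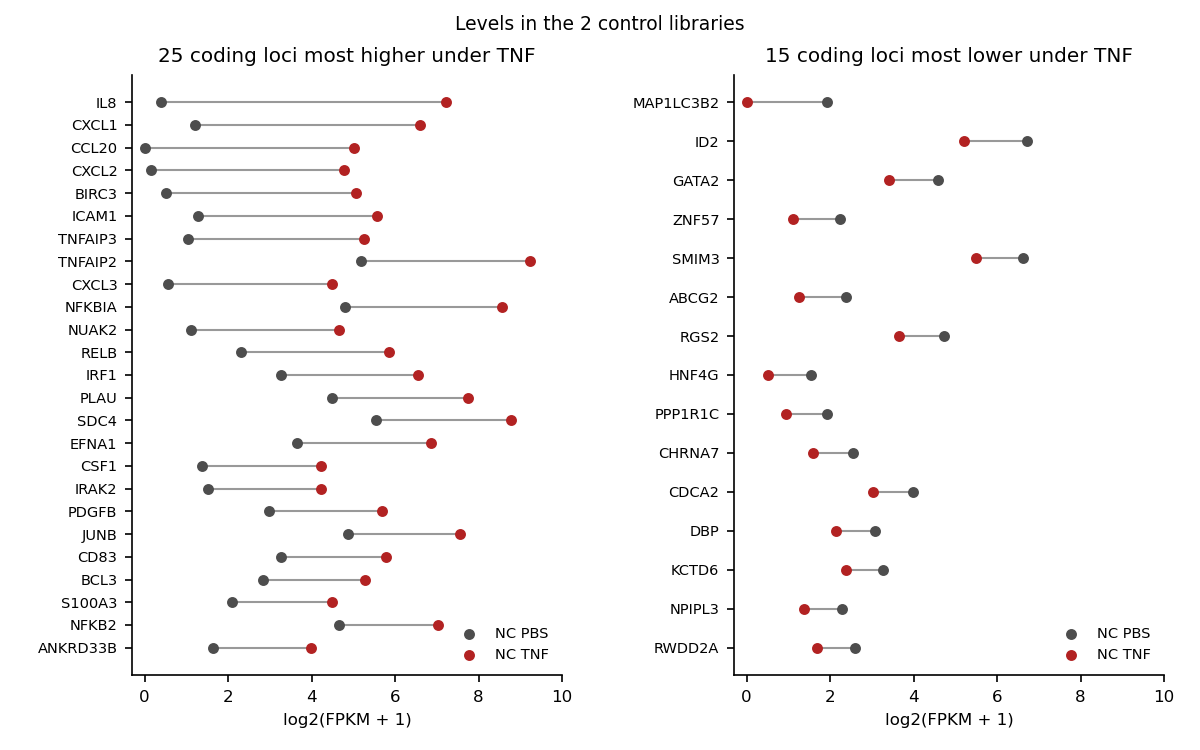
Levels in NC PBS (grey) and NC TNF (red) as log2(FPKM + 1) for the 25 protein-coding loci with the largest positive and the 15 with the largest negative difference, each joined by a line. IL8 spans 0.307 to 149 FPKM and TNFAIP2 35.6 to 605 FPKM, while the lower loci span shorter distances, such as ID2 from 105 to 36.2 FPKM.

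Chemokines, which attract leukocytes, made up 4 of the 5 largest positive differences among protein-coding loci of the control cells. IL8 (CXCL8), a neutrophil attractant, was at 0.307 FPKM under PBS and 149 under TNF, a difference of 6.84. CXCL1, a ligand of the same receptor CXCR2, was at 1.29 and 95.6 FPKM, a difference of 5.40. CXCL2 and CXCL3, close relatives of CXCL1, had differences of 4.62 (0.114 and 26.4 FPKM) and 3.93 (0.478 and 21.5 FPKM). CCL20, which attracts cells bearing CCR6, was listed at 0 under PBS and at 31.6 FPKM under TNF. CXCL16, by contrast, was already at 35.9 FPKM under PBS and reached 54.4.

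Most chemokine genes were listed at 0 or below the filter. Of 20 chemokine genes on the list 6 passed the filter, and 5 of these 6 were at least 2-fold higher, with a median difference of 4.82. IL8, CXCL2, CXCL3 and CCL20 passed only through their TNF level, so the filter largely fixes this count and this median, and nothing is read from them beside the 1.11% of all protein-coding loci, the background for each count of higher list members given here. With at least 1 FPKM required in both NC libraries, an added setting, CXCL1 and CXCL16 were left, and 1 of the 2 was 2-fold higher. A further 9, among them CXCL6, CCL2 and CXCL12, were listed at 0 in both NC libraries. CXCL10, a chemokine best known from interferon responses, stayed at 0.112 and 0.310 FPKM, and CCL5 at 0.333 and 0.920, both below the filter.

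Cytokine and growth factor genes were split between clearly higher and little different. Of 15 that passed the filter 7 were at least 2-fold higher, beside 1.11% of all protein-coding loci, and the median difference was 0.73. CSF2, IL32 and EBI3 passed only through their TNF level, and 4 of the 12 members at 1 FPKM or more in both libraries were 2-fold higher. CSF1, the growth factor of macrophages, was at 1.60 FPKM under PBS and 17.6 under TNF. PDGFB, a mitogen of mesenchymal cells, went from 6.95 to 50.2 FPKM between the libraries, a difference of 2.69. CSF2, which encodes GM-CSF, was at 0.190 and 4.16 FPKM, IL32, an inflammatory cytokine, at 0.663 and 5.24, and EBI3, a subunit of interleukin-27, at 0.486 and 3.35. LIF, a member of the interleukin-6 family, was at 24.0 and 60.6 FPKM. GDF15, a stress cytokine, was near the threshold with 101 and 205 FPKM. IL6 was listed at 0 in both NC libraries, and IL18 was lower under TNF by less than the threshold, at 37.7 and 32.5 FPKM.

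The receptor and the kinases upstream of NF-kB differed little. TNFRSF1A, which encodes TNFR1, was at 35.8 FPKM under PBS and 37.2 under TNF. Over 25 components from the receptor to IKK and the MAP kinases the median difference was 0.05, and 2 were at least 2-fold higher. These were MAP3K8 (TPL2), a kinase that acts downstream of IKK on the ERK pathway, at 1.00 and 6.93 FPKM, and TRAF3, an adaptor that restrains the alternative NF-kB pathway, at 7.26 and 21.3. TRAF2, the adaptor of TNFR1 that recruits ubiquitin ligases, was at 10.5 and 15.9 FPKM, and the kinase MAP3K5 (ASK1) was lower, at 6.62 and 3.95, both under 2-fold.

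Of the 5 NF-kB subunit genes 3 were at least 2-fold higher, with a median of 1.78. RELB, which pairs with p52 in the alternative pathway, was at 3.97 FPKM under PBS and 56.9 under TNF, a difference of 3.54. NFKB2, which encodes p100 and its product p52, was at 24.3 and 130 FPKM, and NFKB1, which encodes p105 and p50, at 10.2 and 37.5. RELA, the p65 subunit of the canonical pathway, was at 36.2 and 46.9 FPKM, a difference of 0.37. REL, at 0.507 and 1.69 FPKM, had a ratio of 3.34, close to the 3.66 of NFKB1, and lay under 2-fold on the scale with a pseudocount of 1.

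Genes of the IkB family and other regulators that restrain NF-kB signals or inflammatory mRNAs stood among the largest differences. TNFAIP3 (A20), an enzyme that edits ubiquitin chains on signalling proteins, was at 1.07 FPKM under PBS and 37.0 under TNF, a difference of 4.20. NFKBIA, which encodes IkB-alpha, was at 26.9 and 379 FPKM, a ratio of 14.1. NFKBIE (IkB-epsilon) was at 6.06 and 33.2 FPKM, and BCL3, a nuclear IkB protein, at 6.19 and 38.1. ZC3H12A (regnase-1), an enzyme that degrades inflammatory mRNAs, was at 3.63 and 16.8 FPKM. NFKBIZ, another nuclear IkB gene, shared its values with NXPE3 and could not be read alone. In all 6 of 17 on this list were at least 2-fold higher, the NFKBIZ locus among them. Above 0 lay 15 of 17, beside 47.2% of all protein-coding loci, with a median of 0.82.

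Genes against and for cell death were both among the higher loci. BIRC3 (cIAP2), a ubiquitin ligase that blocks death signalling from TNFR1, was at 0.438 FPKM under PBS and 32.6 under TNF, a difference of 4.55. Its paralog and chromosomal neighbour BIRC2 (cIAP1) was at 11.8 and 29.6 FPKM, and CFLAR, which encodes the caspase-8 inhibitor cFLIP, at 4.33 and 10.2. SOD2, a mitochondrial antioxidant enzyme, was at 51.5 and 92.7 FPKM, under 2-fold. On the other side TNFRSF10B, the TRAIL receptor DR5, was at 48.7 and 103 FPKM, and the pro-apoptotic BIK and BBC3 (PUMA) at 23.2 and 53.3 and at 10.3 and 23.8 FPKM. At least 2-fold higher were 3 of 10 anti-apoptotic genes, 1 of 13 death receptor and caspase genes and 2 of 11 BCL2 family genes. The background was 1.11% of all protein-coding loci, and the list medians were 0.19, 0.12 and 0.20. BIRC3 passed the filter only through its TNF level. Of the 9 anti-apoptotic genes at 1 FPKM or more in both libraries 2 were 2-fold higher. IER3, an early response gene also on the anti-apoptotic list, was listed at 0 under PBS and at 0.152 FPKM under TNF, in a chromosomal region where most genes were listed at 0.

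Surface and adhesion genes included some of the most abundant responders. SDC4, a heparan sulphate proteoglycan of focal adhesions, was at 45.6 FPKM under PBS and 438 under TNF, a ratio of 9.60. ICAM1, which leukocytes bind through integrins, was at 1.42 and 46.5 FPKM, and CD83, a surface protein known from dendritic cells, at 8.72 and 54.4. TNFRSF9 (4-1BB) was at 0.0203 and 3.85 FPKM, and CD274 (PD-L1), a ligand that restrains T cells, at 0.595 and 3.18. VCAM1 and SELE, the adhesion molecules of activated endothelium, were listed at 0 under PBS and stayed at 0.0639 and 0.133 FPKM under TNF. Of 18 that passed the filter 6 were at least 2-fold higher, with a median of 0.32. TNFRSF9 and CD274 passed only through their TNF level. Of the 15 members at 1 FPKM or more in both libraries 4 were 2-fold higher.

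Proteases and matrix genes gave PLAU and few others. PLAU, the urokinase that activates plasminogen, was at 21.6 FPKM under PBS and 215 under TNF, a difference of 3.26. Its receptor PLAUR was at 22.9 and 41.5 FPKM, under 2-fold on the log scale used. LAMB3, a laminin chain, was at 14.7 and 32.7 FPKM. Altogether 3 of 19 were at least 2-fold higher, with a median of 0.36, and 1 of the 3 was the locus that HMSD and SERPINB8 share.

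Several AP-1 genes were higher together. JUNB was at 28.5 FPKM under PBS and 186 under TNF, JUN at 2.39 and 12.8, ATF3, a stress-induced repressor and activator, at 4.09 and 18.6, MAFF at 4.02 and 16.7, and FOSL2 at 8.83 and 24.6. FOSL1 was just past the threshold at 29.2 and 62.1 FPKM. FOS itself was at 2.73 and 2.96 FPKM. The AP-1 list had 6 of 12 members at least 2-fold higher, beside 1.11% of all protein-coding loci, and a median of 1.01.

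Other immediate early genes and the phosphatases that end MAP kinase signals had smaller medians. ZFP36 (tristetraprolin), which destabilises mRNAs such as that of TNF, was at 13.8 FPKM under PBS and 55.1 under TNF, and KLF6 at 14.6 and 32.1. These were the 2 of 16 immediate early genes that were at least 2-fold higher, with a median of 0.40, while MYC was at 83.2 and 120 FPKM and KLF2 was lower at 9.07 and 6.07. DUSP8 and DUSP5, phosphatases of the MAP kinases, were at 1.23 and 5.13 and at 33.4 and 73.8 FPKM, the 2 of 11 dual-specificity phosphatases past the threshold (median 0.19).

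Receptor systems that feed into the same pathways had single higher members. IRAK2, a kinase of the interleukin-1 receptor, was at 1.86 FPKM under PBS and 17.8 under TNF, and the adaptors TICAM1 and TIFA were at 9.24 and 26.6 and at 15.3 and 40.5. They were the 3 of 13 interleukin-1 and Toll-like receptor genes at least 2-fold higher (median 0.16). IKBKE, an IKK-related kinase, was at 2.79 and 11.8 FPKM, and OPTN, a ubiquitin-binding autophagy receptor, at 4.31 and 10.9, the 2 of 15 autophagy and bridging genes past the threshold (median 0.04). SQSTM1 (p62) was at 81.7 and 162 FPKM, just under 2-fold.

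Single genes of the interferon system were among the higher loci. IRF1, a transcription factor shared by the interferon and NF-kB pathways, was at 8.62 FPKM under PBS and 92.8 under TNF, a difference of 3.29. IFNGR2, a chain of the interferon-gamma receptor, was at 23.8 and 89.2 FPKM, and IRF2 at 2.67 and 7.05, the 3 of 22 interferon receptor, JAK-STAT and IRF genes at least 2-fold higher (median 0.28). Of 28 interferon-stimulated genes 1 was at least 2-fold higher, the RNA sensor IFIH1 at 1.14 and 4.10 FPKM, a share near the 1.11% of all protein-coding loci, and the median was 0.22. IFI27 was lower, at 3.24 and 1.40 FPKM, a ratio of PBS to TNF of 2.31 but under 2-fold on the log scale used. Its differences were -1.78 in siEZH1 and -1.03 in siUXT.

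Genes of antigen presentation by MHC class I showed no member 2-fold apart. HLA-B was at 151 FPKM under PBS and 219 under TNF, and HLA-C at 108 and 155. The median over 14 was 0.25. HLA-E, TAP1, PSMB8 and PSMB9, also on the list, were listed at 0 in both NC libraries, as were most genes of their chromosomal region.

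**Figure D3:**
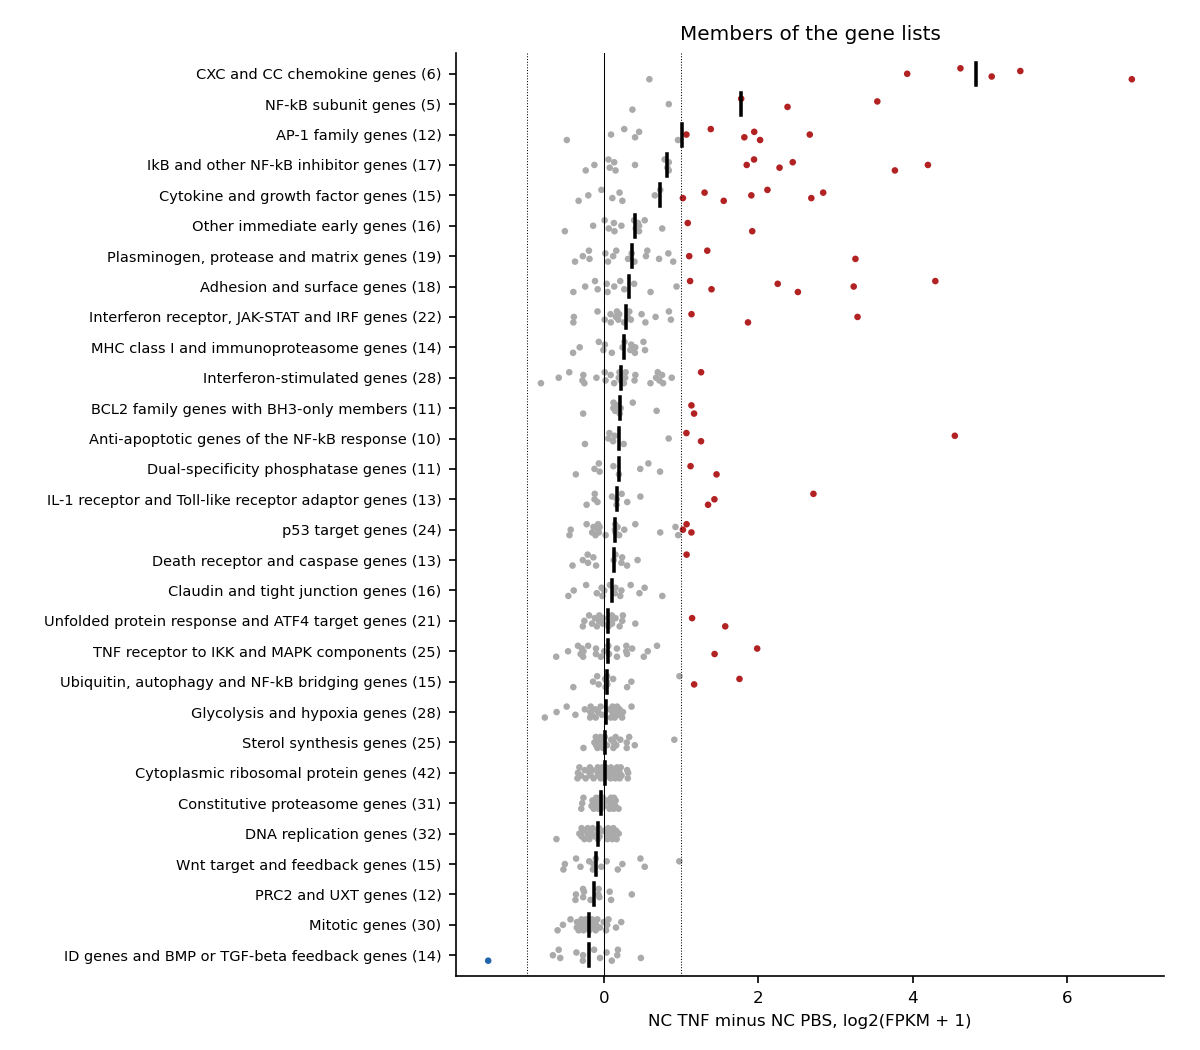
Difference between NC TNF and NC PBS in log2(FPKM + 1) for each member of the 30 gene lists that passed the filter (number in brackets), with 1 point per locus, the list's median as a black bar and dotted lines at 2-fold. Chemokines, NF-kB subunits and AP-1 genes have the medians furthest to the right, at 4.82, 1.78 and 1.01, though 4 of the 6 chemokines passed the filter only through their TNF level, and housekeeping lists gather around 0.

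Some of the largest responders were on none of the lists, and so were 63 of the 122 higher protein-coding loci. TNFAIP2, named for its induction by TNF and linked to membrane protrusions, was at 35.6 FPKM under PBS and 605 under TNF, a ratio of 17.0. EFNA1, a ligand of Eph receptors, was at 11.5 and 116 FPKM, and NUAK2, an AMPK-related kinase, at 1.17 and 24.4. S100A3, a calcium-binding protein, was at 3.29 and 21.4 FPKM and ANKRD33B at 2.11 and 14.9. Chosen after their values were seen, ELF3, an epithelial transcription factor, was at 24.2 and 89.0 FPKM, SMAD3, a transducer of TGF-beta, at 14.1 and 38.8, CXCR4, a chemokine receptor, at 1.57 and 7.16, and EHD1, an endosomal protein, at 18.5 and 54.9. TNFSF18, the ligand of GITR, was listed at 0 under PBS and at 3.59 FPKM under TNF. Of the 122, 12 loci carried several symbols and 5 several protein-coding ones.

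In FPKM rather than in log units, the 3 largest gains among protein-coding loci were of genes already abundant under PBS. TUBA1C, an alpha-tubulin, gained 920 FPKM (619 to 1539), RPS2, a ribosomal protein, 835 (4626 to 5461) and ACTG1, an actin, 662 (3043 to 3705). Of these TUBA1C alone was 2-fold higher, and the near-identical tubulin genes leave its share of reads uncertain. TNFAIP2, SDC4 and NFKBIA followed among the 10 largest with 569, 392 and 352 FPKM, as did RPLP1, PTMA and the metallothionein locus MT1A with MT2A. The largest losses among protein-coding loci were of TPT1, with -733 FPKM from 5578, and of 4 ribosomal protein genes, with ratios of 0.741 (RPS3A) to 0.869 (TPT1) among the 5.

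Lower loci were few and mostly moderate. ID2, which sequesters basic helix-loop-helix transcription factors and is a target of BMP signals, was at 105 FPKM under PBS and 36.2 under TNF, a difference of -1.50. GATA2, a transcription factor, was at 23.2 and 9.71 FPKM, SMIM3 at 96.9 and 43.9, and RGS2, which shortens signals of G protein-coupled receptors, at 25.5 and 11.6. ABCG2, a drug efflux pump, was at 4.20 and 1.41 FPKM, ZNF57 at 3.73 and 1.16, and HNF4G, a nuclear receptor, at 1.90 and 0.420. MAP1LC3B2 was at 2.83 FPKM under PBS and listed at 0 under TNF, and shares most of its sequence with MAP1LC3B, so its reads are uncertain. Next below the threshold came PPP1R1C, CHRNA7, CDCA2, DBP, KCTD6, NPIPL3 and RWDD2A, with differences from -0.98 to -0.90.

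Some other ID and BMP feedback genes lay lower by less than 2-fold. ID1 was at 389 FPKM under PBS and 258 under TNF, MSX2 at 11.04 and 6.59, HES1 at 15.5 and 10.1 and ID3 at 165 and 136, while SMAD7, an inhibitor of TGF-beta receptors, was at 3.28 and 4.94. The list, with ID2 in it, had 9 of 14 members below 0 and 5 above, where 47.2% of all protein-coding loci lay above 0. Its median was -0.20. Among Wnt targets NKD2 was at 4.93 and 10.6 FPKM, with a list median of -0.11. AXIN2, a feedback inhibitor at 22.6 and 15.6 FPKM, shared its values with CEP112 and could not be read alone.

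Mitotic genes leaned to lower values without any member 2-fold apart. Of 30, 25 lay below 0 and 5 above, where 47.2% of all protein-coding loci lay above 0. The median was -0.20 beside -0.02 over all protein-coding loci. MAD2L1, of the spindle checkpoint, was at 81.9 FPKM under PBS and 53.5 under TNF. In siEZH1 the median of the same list was -0.12 and in siUXT 0.30. DNA replication genes had a median of -0.08, with PRIM1, a primase subunit, at 29.6 and 18.9 FPKM.

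Lists of housekeeping and stress pathways stayed close to the median of all loci. Medians were 0.01 for cytoplasmic ribosomal proteins and for sterol synthesis, -0.04 for the constitutive proteasome, 0.02 for glycolysis and hypoxia, 0.11 for tight junctions and 0.05 for the unfolded protein response. Single members stood out in the last: CHAC1, which degrades glutathione, was at 3.72 FPKM under PBS and 13.0 under TNF, and PPP1R15A (GADD34), which reverses the translation block of stress, at 10.4 and 24.1. Of 24 p53 targets 3 were at least 2-fold higher, namely GDF15, TNFRSF10B and BBC3, which other lists also hold, while the p53 targets MDM2 (27.3 and 19.9) and CDKN1A (105 and 175 FPKM) lay on opposite sides of 0. The genes knocked down elsewhere in the series were little different here: EZH1 was at 5.45 and 5.12 FPKM and UXT at 62.2 and 59.6. SUZ12, the partner of EZH1 in Polycomb repressive complex 2, was at 16.4 and 13.4 FPKM. GAPDH was at 4288 and 4503 FPKM and ACTB at 1617 and 1785.

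The same loci were then read in the siEZH1 and siUXT pairs, which share no library with NC but are other transfections and not replicates of it. Over the 10948 protein-coding loci of the NC filter, siEZH1 had 99 at least 2-fold higher (0.904%) and 10 lower (0.0913%), and siUXT 741 higher (6.77%) and 19 lower (0.174%). The siUXT counts are to be read beside this larger background of 6.77%, whose cause was not tested. All 16 loci that were at least 8-fold higher in NC were at least 2-fold higher in both other pairs. Of the 15 between 4-fold and 8-fold, 13 were so in siEZH1 and 14 in siUXT, and of the 91 between 2-fold and 4-fold, 52 and 29. In total 81 of the 122 (66.4%) were 2-fold higher in siEZH1, which is 81.8% of the 99 loci there, and 59 (48.4%) in siUXT, 7.96% of its 741. A difference above 0 was found for 116 in siEZH1 and 112 in siUXT. The median over the 122 was 1.39 in NC, by which they were chosen, 1.22 in siEZH1 and 0.96 in siUXT.

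**Figure D4:**
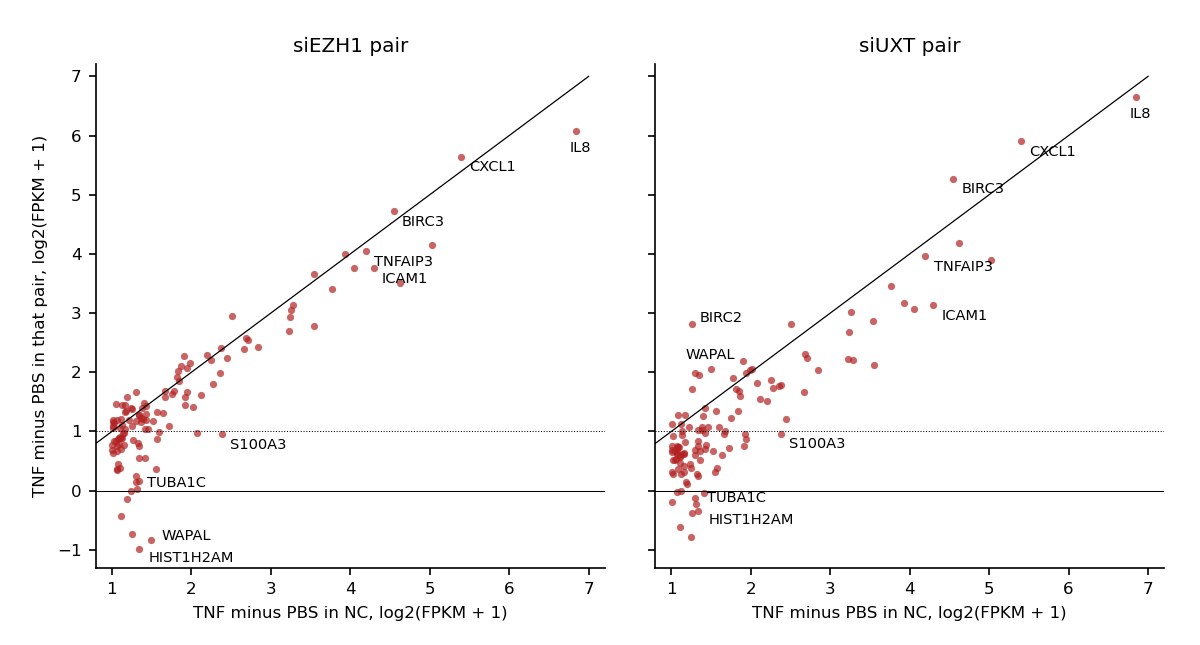
Difference between TNF and PBS in log2(FPKM + 1) for the 122 protein-coding loci at least 2-fold higher in NC, with NC on the x axis and siEZH1 (left) or siUXT (right) on the y axis, a diagonal of equal differences and a dotted line at 2-fold. Most loci with large differences lie below the diagonal in both panels. CXCL1 (5.40 in NC, 5.64 in siEZH1, 5.90 in siUXT) and BIRC3 (4.55, 4.72 and 5.27) lie above it in both. Loci near 1 in NC spread from below 0 to above 1.

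The leading genes were higher under TNF in all 3 pairs, at levels that differed between the transfections. IL8 under TNF was at 149 FPKM in NC, 96.5 in siEZH1 and 132 in siUXT, against 0.307, 0.447 and 0.321 under PBS. ICAM1 under TNF was at 46.5, 25.5 and 30.1 FPKM, and TNFAIP2 at 605, 366 and 324. BIRC3 went the other way, with 32.6 FPKM in NC TNF, 36.7 in siEZH1 TNF and 45.5 in siUXT TNF. These differences between transfections have no replicates and were not tested.

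Some loci were 2-fold higher in NC and less so in the other pairs, without a test of that difference. TUBA1C, at 619 and 1539 FPKM in NC, was at 626 and 636 in siEZH1 and at 869 and 741 in siUXT. The uncharacterised transcript D28390 was 188 and 1041 FPKM in NC and had differences of 0.01 and -0.13 in siEZH1 and siUXT. S100A3 was 2-fold higher in NC but had differences of 0.95 and 0.96 in the others, just below the threshold. Of the 8 lower loci 1 was 2-fold lower in siEZH1 (ID2, 85.4 and 36.8 FPKM) and 2 in siUXT (GATA2, 25.01 and 9.62, and SMIM3, 177 and 63.4), none in both. ID2 in siUXT, at 66.5 and 33.3 FPKM, had a difference of -0.98.

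Loci not annotated as protein coding lay on both sides when at least 2-fold apart. This group takes in symbols without a match in the gene table, so not all of it is known to be noncoding. Of 839 such loci that passed the filter 29 were at least 2-fold higher and 20 lower. Of these 49, 29 were listed at 0 in one of the NC libraries. Small RNAs, of which 47 passed the filter, contributed 29 of the 49, with 14 higher and 15 lower. Of these small RNAs 23 were listed at 0 in one of the NC libraries. SNORD12B, a small nucleolar RNA, was listed at 0 under PBS and at 1222 FPKM under TNF, and MIR3944 at 219 under PBS and at 0 under TNF. Both were listed at 0 in the other 4 RNA libraries. Such transcripts are shorter than most fragments selected for sequencing.

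The share of promoters with a kB motif was larger in classes of larger positive difference, as a description without a test. Windows of 300 bases, from 250 before the annotated start to 50 after it, were on hand for 9015 of the 10948 protein-coding loci, and a locus counted as matched if any of its windows held the motif. A match was found for 9 of 15 loci at least 8-fold higher, which is 60.0% (95% Wilson interval 35.7% to 80.2%), for 6 of 12 between 4-fold and 8-fold (50%, 25.4% to 74.6%) and for 25 of 73 between 2-fold and 4-fold (34.2%, 24.4% to 45.7%). Loci between 1.5-fold and 2-fold had 28.2% and those within 1.5-fold either way 17.3%. Over all 9015 the share was 17.7%, and over all 35116 windows of the reference 11.3%. For loci at least 1.5-fold lower it was 15.5%, and for the few at least 2-fold lower 2 of 7 (28.6%, 8.22% to 64.1%). Over all loci at least 2-fold higher the share was 40%, and 37.8% with at least 1 FPKM required in both NC libraries. The intervals cover counting error only, and genes are not independent replicates. The 9 matched loci of the top class hold the trio CXCL1, CXCL2 and CXCL3, whose stretches are near alike.

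**Figure D5:**
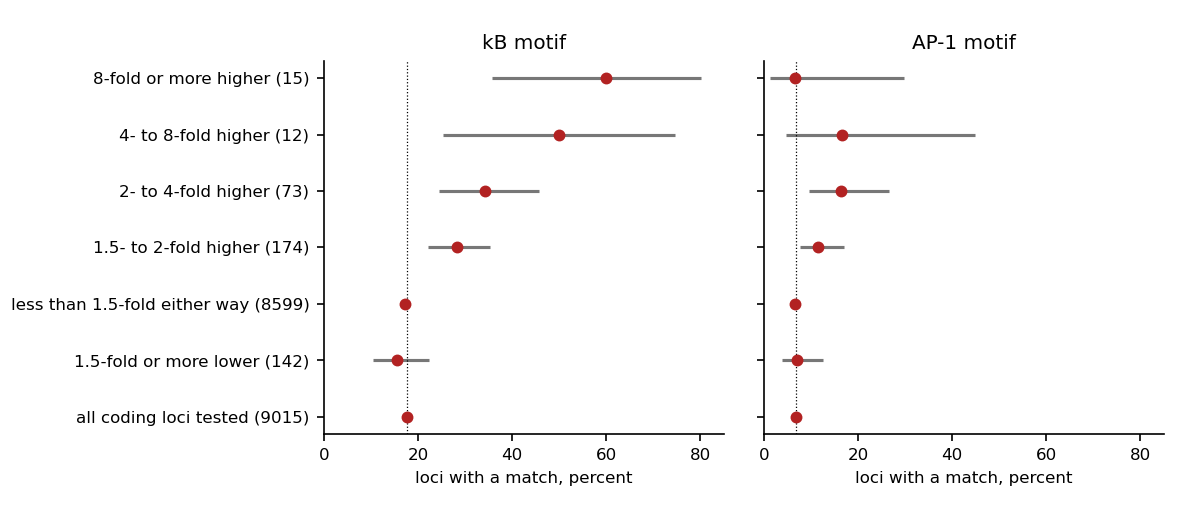
Share of protein-coding loci (percent, x axis) whose promoter window held the kB motif (left) or the AP-1 motif (right), by size of the difference under TNF, with the number of loci in brackets, 95% Wilson intervals as bars and a dotted line at the share over all loci. The kB share steps down from 60.0% in the top class to 17.3% in loci that differed by less than 1.5-fold.

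The number of windows per locus and the base composition were alike in both sets. Higher loci had 1.43 windows each and a mean GC content of 64.2%, against 1.47 windows and 65.1% over all. Of the loci at least 8-fold higher, IL8, ICAM1, TNFAIP2, NUAK2, PLAU and EFNA1 had a window without a match, which says only that these letters are not in it. The AP-1 motif TGANTCA, searched on both strands, was found in 15 of the 100 higher loci with a window (15.0%, 9.31% to 23.3%), against 6.80% of all, and 8 of the 100 held both motifs. Among loci at least 8-fold higher it was found in 1 of 15, IL8, starting 137 bases before the start of transcription.

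Genes next to the strongest responders mostly differed by little. The 31 loci at least 4-fold higher had 62 neighbouring protein-coding genes, of which 39 passed the filter. CXCL2 and CXCL3 neighbour each other and were both among the 31. Of the other 37, 2 were at least 2-fold higher (5.41% beside a background of 1.11%) and 0 lower: BIRC2, next to BIRC3, and TMCC2, next to NUAK2, at 2.12 and 5.55 FPKM. Over protein-coding loci the median difference was -0.08 at means of 1 to 2 FPKM and 0.06 at 100 or more. The neighbours were not matched for level. A difference above 0 was found for 29 of the 37 (78.4%), against 47.2% of all protein-coding loci, with a median of 0.14. This lean was not tested and was smaller or turned in the other pairs: in siEZH1 24 of the 37 (64.9%) lay above 0, against 51.2% of all, and in siUXT 12 (32.4%), against 45.9%, with medians of 0.05 and -0.22. Others were slightly lower, such as YAP1 beside BIRC3 (32.6 and 29.3 FPKM) and the locus of PSMA6 beside NFKBIA (159 and 153). PSMA6 shared its values with KIAA0391 and could not be read alone.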

How the data were processed

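The authors deposited 1 table of FPKM per gene symbol for each RNA library, made from poly(A)-selected RNA per the labels' protocols. FastQC, cutadapt, TopHat2, Bowtie and SICER are named with hg19 per the submitters' processing notes, without versions. No source used here names the program that made the FPKM, its annotation or its strand setting, so values of overlapping, antisense and near-identical genes may be split or shared. The number of reads is unknown; an exact 0 is read only as listed at 0. Relative depth came from the most frequent ratio, within 2%, among 1613 symbols under 0.4 FPKM, 375 of which lay at it. FPKM summed to 617998 in NC PBS and 638177 in NC TNF, and no further scaling was applied. The labels do not say whether the libraries came from separate cultures.

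The tables list 28502 symbols, and 22789 matched a RefSeq gene table (GRCh38.p14), used for names, gene type and neighbours. Of the tested loci 1041 carry several symbols. The analysis used log2(FPKM + 1), without a test, in Python 3.11.15 (pandas 2.3.3, numpy 2.4.6, matplotlib 3.10.9, scipy 1.17.1), and was checked on simulated data. The genes named are the 25 largest positive and 15 largest negative differences, the 10 largest gains and 5 largest losses in FPKM among protein-coding loci, up to 5 members per list, 11 genes always given, 5 noncoding loci and the loci nearest the filter. Some genes the rule selected are not reported here. Other genes named were chosen after their values were seen. The members and the 33 lists, 3 of them cell type markers, were chosen with earlier results of these data known. Alternatives were other pseudocounts, filters, folds, scaling and merging.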

Additional observations from a re-analysis of the deposited data

Results flagged for a closer look

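Protein-coding loci that were at least 2-fold apart in NC and at least 1.5-fold apart the other way in another transfection are given here; the differences between transfections were not tested. ABCG2, the efflux pump, had a difference of -1.11 in NC and 0.67 in siEZH1. BIRC7, a relative of BIRC3, had 1.10 in NC and -0.62 in siUXT, with levels between 0.221 and 2.07 FPKM over the 6 libraries. GCHFR, which regulates the first enzyme of tetrahydrobiopterin synthesis, had 1.25 in NC, -0.73 in siEZH1 and -0.78 in siUXT. HIST1H2AM, a histone H2A gene, had 1.34 in NC and -0.99 in siEZH1. WAPAL, which releases cohesin from chromatin, had 1.5 in NC, 2.05 in siUXT and -0.83 in siEZH1: its levels were 13.2 and 39.0 FPKM in NC, 23.2 and 12.6 in siEZH1, and 6.95 and 32.0 in siUXT.

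Some list members had a mean below 1 FPKM but reached at least 0.5 FPKM in NC TNF, 4 times their PBS level or more, and were also higher under TNF in both other pairs. IL23A, a cytokine subunit, was at 1.30 FPKM under TNF and 0.135 under PBS. IFI44, an interferon-stimulated gene, was at 0.940 and 0.126 FPKM. ICAM4 was at 0.618 FPKM and STAT5A at 0.542 under TNF, and both were listed at 0 under PBS.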

How the results depend on the processing

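Pseudocounts, filters, folds and merging cannot turn the sign of a difference, so nothing is read from the directions kept under them. With median-of-ratios scaling, all 75 named loci at least 2-fold apart stayed so. Scaling by median-of-ratios size factors, another merging of symbols, no merging, no filter, or leaving out loci of several protein-coding symbols kept every count within 1.5 times. With a pseudocount of 0.1 in place of 1, 99 loci and 57 protein-coding loci were 2-fold lower. With a pseudocount of 5, 77 loci were higher and 17 lower, 60 protein-coding loci were higher and 2 lower, and 58.3% of those 60 were also higher in siUXT; of the 75 named loci at least 2-fold apart, 24 were then under 2-fold, among them CSF2, IL32, MAP3K8, GATA2 and RGS2. A mean of at least 5 FPKM left 18 lower loci, 4 of them protein coding, and protein-coding loci alone had 8 lower. Chosen after the data were seen, a level above 0 in both NC libraries left 13 lower loci, and at least 1 FPKM in both left 11. At 1.5-fold, 405 loci were higher and 229 lower, 348 and 172 among protein-coding loci, with 55.2% also higher in siEZH1. At 4-fold, 46 were higher and 12 lower, 31 and 0 among protein-coding loci, of which 80.6% were also higher in siEZH1 and 67.7% in siUXT, and 55.6% of those with a promoter window held a kB motif. The filters and folds test fewer or more loci by construction; for the pseudocounts, low values weigh more with 0.1 and less with 5. No replicate could be left out, with 1 library a side. Depth limits low values most, and the read counts behind them are unknown.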

Other observations

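Genes of the major histocompatibility region on chromosome 6 were often listed at 0, a pattern looked for after the values were seen. Of 136 protein-coding genes from HLA-F to TAPBP in the RefSeq order that the tables list, 82 (60.3%) were at 0 in both NC libraries and 68 (50%) in all 6 RNA libraries. Of the 136 genes just before this stretch 41.2% and 36.8% were so, and of the 136 just after it 19.1% and 14.7%. The shares were 25% and 20.5% of the 848 others on chromosome 6, and 22.5% and 18.3% of all 18748 protein-coding genes listed. The genes at 0 in both NC libraries included RPS18, a ribosomal protein, DDX39B, an mRNA export helicase, and CSNK2B, a casein kinase subunit, all of which most cells use. HLA-B, HLA-C, MICA and TUBB, in the same stretch, had values above 10 FPKM in both. TNF, LTA, LTB, TAP1, PSMB8 and PSMB9 lie there too, and so does IER3, so their zeros or near-zero values in NC PBS and NC TNF are not read as absence of expression. The cause was not tested.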
